A study of Mus musculus with 8 samples.

Results

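Wild-type mouse embryonic fibroblasts deprived of glucose for 12 h were compared with the same cells fed, over 4 of the 8 RNA sequencing libraries of a series on Kdm3a, a histone H3K9 demethylase gene. The libraries were chosen by their titles. Of these, 2 were labelled WT at 0 h and 2 WT after 12 h of glucose starvation. The other 4 came from cells labelled as Kdm3a knockouts. Both WT groups were fibroblasts (connective tissue cells grown out of embryos) of the C57BL/6 strain at passages 3 to 5, with no allele or transgene named for them. Fed cells grew in DMEM with 10% FBS and antibiotics. Starved cells were rinsed with PBS and kept in DMEM lacking glucose with 10% dialyzed FBS, serum from which small molecules have been removed. No WT group was kept fed for 12 h, so the loss of glucose cannot be told apart from the rinse, the new medium, the dialyzed serum and the elapsed time; "starved" below stands for all of these together. Nothing in the labels says whether the 2 libraries of a group had separate cultures or embryos as their source. A p-value here covers the spread between libraries alone, and that spread may be technical.

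Glucose feeds glycolysis, the pentose phosphate pathway and the hexosamine pathway that supplies sugars for protein glycosylation, so its loss touches energy, reducing power and protein folding in the endoplasmic reticulum (ER) at once. Unfolded ER proteins are sensed by PERK, IRE1 and ATF6. PERK is also one of 4 kinases that phosphorylate the initiation factor eIF2alpha, which lowers protein synthesis while letting the transcription factor ATF4 be made. AMPK and mTORC1 sense energy and amino acids and set the balance between growth and the autophagy and lysosome system.

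Fed libraries held 39781784 and 38407526 counts and starved libraries 41019748 and 41775284. Fewer genes had a count when starved (14480 and 14426) than when fed (15735 and 15665). Log2 levels correlated across genes at r = 0.999 within each group and 0.952 between groups, where genes are not independent replicates. Rn45s, the precursor of ribosomal RNA, took 36971 and 35972 counts fed and 268602 and 303336 starved, a rise of 3.34 ± 0.062 on the log2 scale. In these counts the precursor cannot be told apart from ribosomal RNA carried over into a library. The labelled cell type was checked against 14 fibroblast markers: Vim, Col1a1 and Col1a2, Thy1, Pdgfrb and S100a4 were each at 99.3 CPM or more when fed. Against the label, the defining markers Lum and Fap had 2 and 11 counts over both fed libraries and 0 starved, and Dcn stayed at or under 2.57 CPM. Of 12 macrophage and blood cell markers 7, including Ptprc, had no count in any of the 4 libraries. Some markers of other tissues were present. The 9 cartilage and bone markers summed to 369 to 380 CPM fed and 229 to 244 CPM starved. The 9 neural and glial markers summed to 251 to 252 CPM fed and 99.7 to 108 CPM starved. Nes had the highest level of these 9, and Rbfox3, Sox10 and Olig2 had no count in any of the 4 libraries. Kdm3a itself went from 56.1 and 56.4 to 176 and 185 CPM (1.68 ± 0.042).

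Levels are in CPM, a gene's count over its library's total on a common scale, after TMM scaling, a correction that assumes most genes do not change. Each is given for both libraries of a group, fed first. Changes are log2 fold changes, starved minus fed, ± SE, and a gene rose or fell where edgeR's quasi-likelihood test gave an adjusted p under 0.05. Of 14418 genes tested, 81.6% were called: 5296 (36.7%) rose and 6465 (44.8%) fell. By more than 2-fold, 2164 rose, 15% of genes, and 3952 fell, 27.4%. The median gene changed by -0.17, and by -0.15 with genes at 0 counts in one group set to their bound. With plain library totals it changed by -0.63, a shift of -0.46, and 744 calls turned, so small rises depend on the scaling. Gene lists are described by their counts and medians against those shares. A list called divided, or changing in both directions, can lie near them and then differs little from all genes. Where a list's counts are given below and their balance turns or evens out with library totals, those counts are given too. Their background is that of all 14418 genes with library totals, 3397 higher and 8629 lower. For lists described without counts, the balance with library totals is not given. In bulk RNA, fewer cells expressing a gene and less RNA per cell cannot be told apart.

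**Figure D1:**
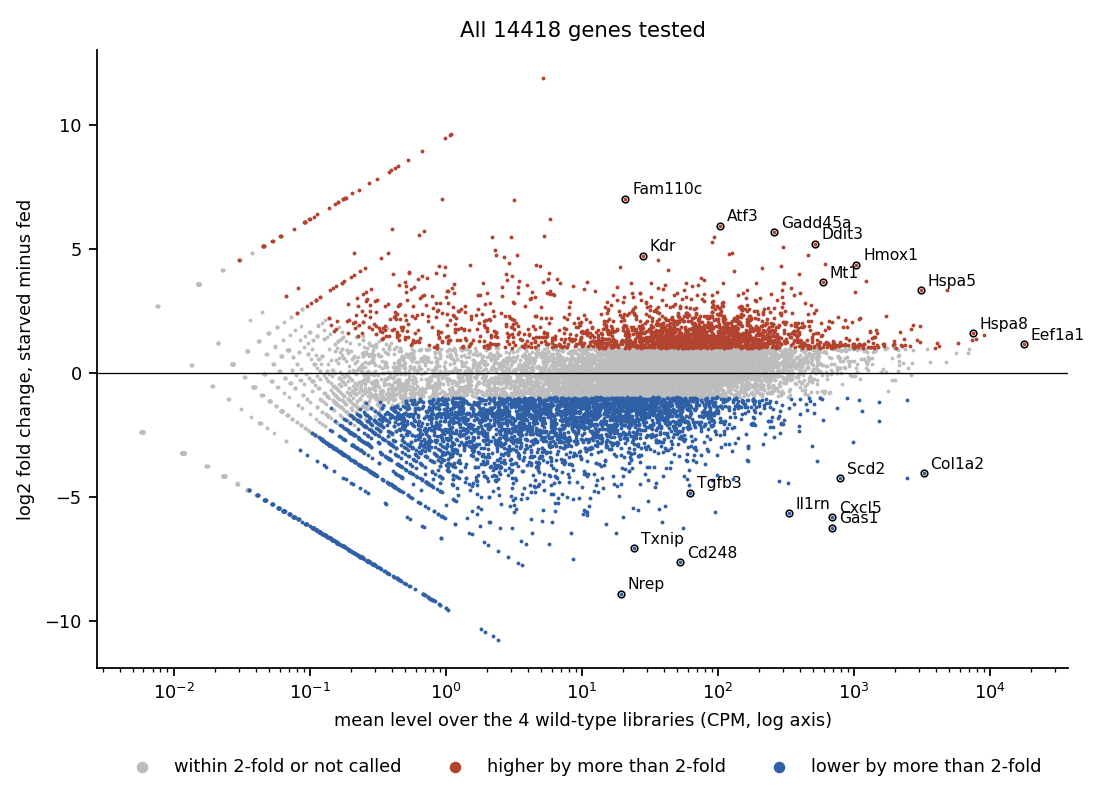
Each point is 1 of the 14418 genes tested, with its mean level over the 4 wild-type libraries (CPM, log axis) against its log2 fold change, starved minus fed. Red and blue points were called and differed by more than 2-fold; strong falls reach genes of high level such as Col1a2, and the slanted rows at the left and lower edges are genes with few or no counts in one group.

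The steepest rises among genes of at least 20 CPM were those of Fam110c, from 0.371 and 0.263 to 39.1 and 43.7 CPM (7.01 ± 0.14), and of the stress transcription factor gene Atf3, from 3.54 and 3.18 to 199 and 209 CPM (5.92 ± 0.066). Gadd45a, which encodes a growth arrest protein, rose from 9.36 and 10.7 to 512 and 505 CPM, a 50.7-fold change. Plcxd2, a phospholipase C-like gene, rose from 4.63 and 4.5 to 171 and 178 CPM (5.26 ± 0.065) and Pim1, a serine/threonine kinase gene, from 23.8 and 19.3 to 405 and 392 CPM (4.21 ± 0.064). In these, as in all 282 genes named here that were called, the fed and starved libraries did not overlap, which held for 89% of all genes tested. Some genes appeared only on starvation: Ecel1, a membrane peptidase gene, had 0 fed counts and 680 starved, at least 147-fold higher against a floor of 3 counts per library, and Fgf21, a stress hormone gene, had 0 and 144, at least 31.1-fold higher.

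The steepest fall among genes of at least 20 CPM was that of Nrep, a neuronal regeneration-related gene, with 3256 counts fed and 5 starved, a ratio of 503 (95% Clopper-Pearson interval 215 to 1549, for counting error only). Cd248, a stromal cell surface gene, fell from 107 and 102 to 0.675 and 0.363 CPM (-7.65 ± 0.12). The hyaluronan synthase gene Has2 fell from 75.9 and 76.8 to 1.41 and 0.908 CPM (-6.04 ± 0.12). Il1rn, the interleukin 1 receptor antagonist, fell from 640.1 and 661 to 12.3 and 13.2 CPM (-5.67 ± 0.051) and Apln, the apelin ligand gene, from 51.9 and 48.8 to 0.921 and 1.24 CPM (-5.54 ± 0.11). Ppp1r10, a nuclear regulatory subunit of protein phosphatase 1, went the opposite way from Ppp1r15a below, from 72.5 and 70.7 to 1.69 and 1.45 CPM (-5.51 ± 0.091). Transcripts with no count left included Nts, the neuropeptide neurotensin, with 375 counts fed and 0 starved (at least 48.3-fold lower), Zfp810, a zinc finger gene (412 and 0, at least 53.1-fold lower), and Gdf5, a BMP-family ligand gene (154 and 0, at least 19.7-fold lower).

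The eIF2alpha and ATF4 group mostly rose. Among its kinases, phosphatase subunits and ATF4-family factors 19 of 21 tested members rose and 2 fell, with a median of 1.10. Ddit3 (CHOP), a proapoptotic factor downstream of ATF4, rose from 26.5 and 28.1 to 1014 and 1001 CPM (5.20 ± 0.037). Its transcriptional partner Atf4 rose from 229 and 227 to 908 and 898 CPM (1.98 ± 0.028) and Trib3, a pseudokinase that restrains ATF4, from 8.68 and 8.88 to 109.6 and 107 CPM (3.62 ± 0.063). Ppp1r15a, which recruits phosphatase to eIF2alpha and so ends the response, rose from 16.5 and 17.9 to 568 and 589 CPM (5.07 ± 0.041). The 4 kinases themselves divided. Eif2ak3 (PERK), which senses ER stress, rose from 30.9 and 33.5 to 53.7 and 54.6 CPM (0.75 ± 0.055), Eif2ak4 (GCN2), which senses uncharged tRNA, by 0.52 ± 0.05 and Eif2ak1 (HRI), the heme-regulated kinase, by 0.45 ± 0.048. The rises of Eif2ak4 and Eif2ak1 shrank to 0.06 and -0.01 with library totals. Eif2ak2 (PKR), the kinase for double-stranded RNA and an interferon-induced gene, fell from 42.4 and 41.8 to 7.28 and 7.51 CPM (-2.51 ± 0.064).

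Among the ER stress sensors, Atf6 rose most, from 28.6 and 28.2 to 185 and 188 CPM (2.72 ± 0.04), and Ern1 (IRE1) rose from 18.2 and 18.6 to 49.1 and 56.4 CPM (1.52 ± 0.067). Xbp1, the factor whose mRNA IRE1 splices, rose from 35.3 and 32.8 to 123 and 122 CPM (1.84 ± 0.048). Counts per transcript do not show its splicing. Wfs1, an ER membrane protein gene, rose from 16.5 and 16 to 82.5 and 87.3 CPM (2.39 ± 0.055). The related membrane-bound factor gene Creb3l1, known from collagen-producing cells, fell from 84.3 and 79.2 to 35.4 and 35.2 CPM (-1.21 ± 0.052). Of ER chaperones and folding enzymes, 20 of 28 tested members rose and 7 fell; 15 of the rises and 3 of the falls exceeded 2-fold (median 1.15). Hspa5 (BiP), the main ER chaperone, rose from 561 and 561 to 5584 and 5593 CPM (3.32 ± 0.023). The steepest in the list was Sdf2l1, which acts with BiP, from 9.63 and 10.1 to 139 and 141 CPM (3.83 ± 0.049), followed by Dnajb9, a BiP cofactor, from 12 and 10.6 to 133 and 130.4 CPM (3.54 ± 0.053). The members that fell by more than 2-fold were 3 prolyl isomerases of the FKBP family, which includes folding factors of procollagen: Fkbp14 from 41 and 44.5 to 6.17 and 5.39 CPM (-2.89 ± 0.088), Fkbp7 (-1.40 ± 0.085) and Fkbp10 (-1.09 ± 0.035).

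In ER-associated degradation, which returns misfolded proteins to the cytosol, 16 of 23 tested members rose and 3 fell (median 0.87). Herpud1, a scaffold of the degradation complex, rose from 77.2 and 78.9 to 718 and 713 CPM (3.20 ± 0.032) and Sel1l, the adaptor of its ubiquitin ligase, from 89.1 and 93.5 to 358 and 364 CPM (1.98 ± 0.032). Vcp, the cytosolic ATPase that pulls substrates out, moved against them, from 949.7 and 957 to 679 and 691 CPM (-0.48 ± 0.025). N-glycan synthesis was divided: 20 of 39 tested members rose and 14 fell, and with library totals 8 rose and 22 fell. Pmm1, a phosphomannomutase, rose from 54.5 and 52.6 to 133 and 131 CPM (1.30 ± 0.045), while Alg6, which adds the first glucose to the lipid-linked sugar chain, fell from 14.4 and 16 to 2.76 and 3.82 CPM (-2.21 ± 0.14). Of the O-GlcNAc pair, Mgea5, which removes the sugar, rose from 112 and 114 to 227 and 228 CPM (1.01 ± 0.036), and Ogt, which adds it, fell from 141 and 141 to 55.1 and 52.3 CPM (-1.39 ± 0.045). The hexosamine enzyme gene Gnpnat1 rose from 26.9 and 27.7 to 77.4 and 74.8 CPM (1.48 ± 0.052).

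Promoter sequences of 6 genes are shown because the ER, amino acid, glucose and cell cycle groups contain genes with well-known promoter elements. They are from RefSeq (build GRCm38.p6, while the deposited counts were made on mm9), read 5′ to 3′ on the gene's strand, and cover the 250 bases before the annotated start. Capitals mark every match, on either strand, to the ER stress element (CCAAT and CCACG with 9 bases between them), the ER stress element II (ATTGG and CCACG with 1 base between), the CEBP-ATF composite element TGATGNAA, the cell cycle homology region TTTGAA or the carbohydrate response element (CACGNG and CNCGNG with 5 bases between), the bases between included. The windows are Hspa5 at chr2:34771840-34772089 (+), Herpud1 at chr8:94386179-94386428 (+), Chac1 at chr2:119350992-119351241 (+), Slc7a11 at chr3:50443614-50443863 (-), Txnip at chr3:96557707-96557956 (+) and Cdk1 at chr10:69352913-69353162 (-).
Hspa5: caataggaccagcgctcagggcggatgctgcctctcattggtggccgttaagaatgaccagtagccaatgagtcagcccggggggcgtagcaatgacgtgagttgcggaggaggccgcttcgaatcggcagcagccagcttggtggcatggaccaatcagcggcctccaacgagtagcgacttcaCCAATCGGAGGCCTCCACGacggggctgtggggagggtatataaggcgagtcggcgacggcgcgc
Herpud1: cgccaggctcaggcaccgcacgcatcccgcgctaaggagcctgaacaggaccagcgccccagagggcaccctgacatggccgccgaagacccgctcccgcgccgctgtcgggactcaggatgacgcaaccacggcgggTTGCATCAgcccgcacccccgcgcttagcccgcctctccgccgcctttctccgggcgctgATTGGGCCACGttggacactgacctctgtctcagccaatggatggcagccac
Chac1: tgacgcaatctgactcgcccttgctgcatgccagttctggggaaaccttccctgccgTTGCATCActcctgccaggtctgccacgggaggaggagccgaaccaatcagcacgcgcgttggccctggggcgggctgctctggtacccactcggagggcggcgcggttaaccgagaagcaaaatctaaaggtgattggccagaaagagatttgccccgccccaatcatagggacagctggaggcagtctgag
Slc7a11: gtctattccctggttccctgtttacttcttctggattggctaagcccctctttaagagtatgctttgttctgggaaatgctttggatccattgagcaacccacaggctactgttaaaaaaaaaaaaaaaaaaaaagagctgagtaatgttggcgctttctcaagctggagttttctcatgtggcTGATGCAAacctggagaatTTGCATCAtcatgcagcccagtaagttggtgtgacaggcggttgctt
Txnip: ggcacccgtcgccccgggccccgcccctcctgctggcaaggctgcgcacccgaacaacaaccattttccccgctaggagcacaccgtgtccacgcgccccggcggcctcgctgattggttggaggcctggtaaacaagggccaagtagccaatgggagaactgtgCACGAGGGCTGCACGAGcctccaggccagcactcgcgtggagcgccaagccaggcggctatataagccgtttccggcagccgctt
Cdk1: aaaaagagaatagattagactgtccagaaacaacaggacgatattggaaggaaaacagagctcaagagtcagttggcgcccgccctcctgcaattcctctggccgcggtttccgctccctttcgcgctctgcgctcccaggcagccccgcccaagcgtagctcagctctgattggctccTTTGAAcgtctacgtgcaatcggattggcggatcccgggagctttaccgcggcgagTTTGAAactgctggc

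A window was found for 11080 of the 14418 genes tested. The ER stress element was in 17 of them (0.153%), and 10 of these 17 rose by more than 2-fold and 1 fell, against 15.1% and 26.3% of all genes with a window. It was in 7 of 24 ER chaperone windows: Calr, Canx, Creld2, Ero1lb, Hsp90b1, Hspa5 and Pdia6. In Hspa5 it lies 65 to 47 bases before the start. Herpud1 holds the ER stress element II (in 0.0632% of windows) and a composite element. The composite element was in 2.44% of windows. Of the genes holding it 20% rose and 22.2% fell by more than 2-fold, so falls were as common as rises. Among 16 cytosolic aminoacyl-tRNA synthetase genes it was in Aars, Gars and Tars, and among 18 glutamine, asparagine, proline and cysteine genes in Asns, Chac1 and Got1. The composite element was in 0 of 21 serine synthesis and one-carbon windows and in 1 of 24 ER chaperone windows. Slc7a11 holds 2 copies and did not rise, as described next. These matches describe letters in a window and do not show binding.

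Amino acid transporters divided. Of these, 12 of 23 tested members rose and 9 fell, 8 and 6 by more than 2-fold, and with library totals 9 rose and 12 fell. Slc3a2, the heavy chain that carries several exchangers to the membrane, rose from 181 and 173 to 2272 and 2257 CPM (3.68 ± 0.03). Its partner Slc7a5 (LAT1), for large neutral amino acids, rose from 150.5 and 149 to 766 and 773 CPM (2.36 ± 0.03), and the glycine carrier gene Slc6a9 rose from 29.5 and 28.9 to 296 and 295 CPM (3.34 ± 0.04). Slc7a11, the cystine light chain that also pairs with Slc3a2, fell from 24.2 and 24.1 to 17.6 and 19.7 CPM (-0.37 ± 0.075). Slc43a2 (LAT4), another large neutral amino acid carrier, fell from 26.4 and 25.1 to 1.9 and 1.85 CPM (-3.78 ± 0.12), and Slc38a4, a system A carrier, fell from 242 and 242 to 40.6 and 37.9 CPM (-2.63 ± 0.061). The system A carrier Slc38a2 rose from 346 and 332 to 540.2 and 554 CPM (0.69 ± 0.031).

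Every enzyme of serine synthesis from the glycolytic intermediate 3-phosphoglycerate rose: Phgdh from 292 and 282 to 995 and 1024 CPM (1.81 ± 0.029), Psat1 from 369.5 and 371 to 835 and 812 CPM (1.15 ± 0.028) and Psph from 28.7 and 29.1 to 175 and 174 CPM (2.59 ± 0.044). In the mitochondrial folate branch Mthfd2 rose from 74.7 and 73.9 to 652 and 650.5 CPM (3.13 ± 0.034) and Aldh1l2 from 73.6 and 75.2 to 402 and 416 CPM (2.46 ± 0.035). Mat2a, which makes the methyl donor S-adenosylmethionine, fell from 179 and 183 to 88.8 and 84.1 CPM (-1.06 ± 0.039). In the glutamine, asparagine, proline and cysteine list 17 of 27 tested members rose and 7 fell (median 0.81). Chac1, which degrades glutathione, rose from 8.89 and 8.45 to 245 and 241 CPM (4.81 ± 0.051), Asns, asparagine synthetase, from 112 and 107 to 762 and 757 CPM (2.79 ± 0.033), and Cth, which makes cysteine, from 8.98 and 11.2 to 106 and 99.5 CPM (3.34 ± 0.071). Got1, the cytosolic aspartate aminotransferase, rose from 30.6 and 29.5 to 275 and 278 CPM (3.20 ± 0.039). Glul, glutamine synthetase, fell from 24.6 and 25.6 to 18.9 and 17.3 CPM (-0.47 ± 0.073).

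**Figure D2:**
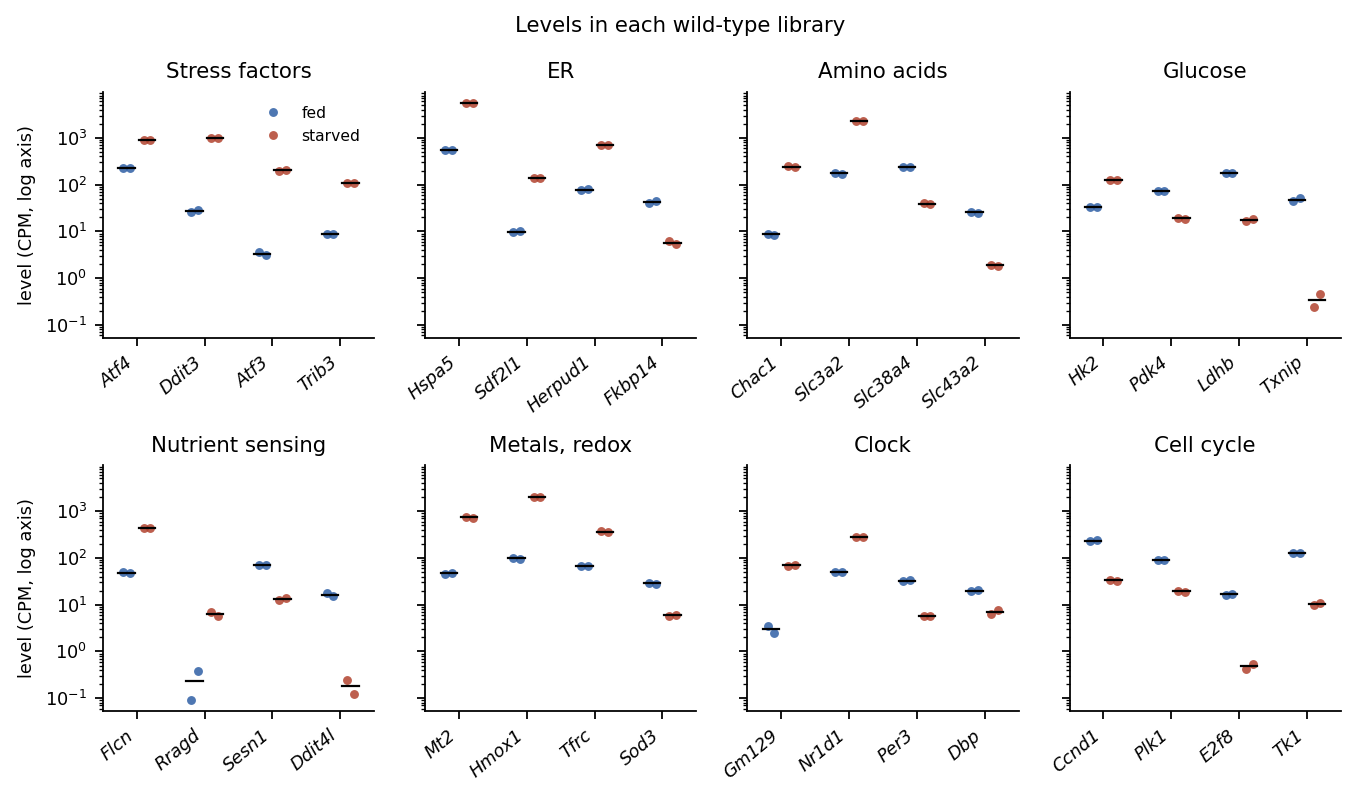
Levels of 32 genes in 8 groups, in CPM on a log axis; each point is 1 library (blue fed, red starved) and each bar the mean of 2. Replicates lie close together, except at the lowest levels (Txnip starved, Rragd fed), and in every gene plotted the starved libraries lie on one side of the fed ones.

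Genes of cytosolic translation mostly rose. All 23 cytosolic aminoacyl-tRNA synthetases, which load tRNAs, rose (18 by more than 2-fold, median 1.48), led by Sars from 153 and 157 to 896 and 884 CPM (2.52 ± 0.029) and Tars from 161 and 158 to 837 and 857 CPM (2.41 ± 0.03); with library totals 21 rose. Of their mitochondrial counterparts 8 of 17 tested members rose and 7 fell, and with library totals 5 rose and 8 fell. Lars2 rose from 381 and 391 to 1359 and 1382 CPM (1.83 ± 0.035). Of 39 initiation and elongation factors 36 rose and 3 fell (median 1.07). Eif1, a start codon selection factor, rose from 321 and 325 to 1434 and 1353 CPM (2.11 ± 0.03). Eif4ebp1, an mTORC1 target that blocks cap-dependent initiation, rose from 126 and 127 to 504 and 484 CPM (1.96 ± 0.035) while its relative Eif4ebp2 fell from 65.5 and 57.9 to 19 and 20.9 CPM (-1.63 ± 0.068).

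Ribosome biogenesis genes had the highest median of the lists: 48 of 49 tested members rose and 1 fell, 38 by more than 2-fold, with a median of 1.62 (1.17 with library totals). Rrp12, of ribosomal subunit maturation and export, rose from 28.7 and 28.3 to 243 and 259 CPM (3.14 ± 0.045) and Gnl3 (nucleostemin) from 92.5 and 93.2 to 487 and 490.1 CPM (2.40 ± 0.034). The fall was that of Nop10, a small snoRNP protein (-0.27 ± 0.06). All 77 cytosolic ribosomal protein genes rose within a narrow range, from 0.68 to 1.58 on the log2 scale (median 1.01); reads of their many near-identical pseudogene copies could be split by the counting, so single members are uncertain. Mitochondrial ribosomal proteins were looser, with 46 of 76 higher and 18 lower, and 31 higher and 35 lower with library totals. Host transcripts of small nucleolar RNAs, which guide rRNA modification, rose in 8 of 12 cases, with Snhg12 from 14.1 and 18.1 to 209 and 190.2 CPM (3.63 ± 0.077) and Gas5 from 150.0 and 149 to 416 and 398 CPM (1.44 ± 0.035). Counts of Rn45s rose as well, with the limit given above that carried-over ribosomal RNA could add to them. Any link to the rise of these lists was not tested.

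Cytosolic heat shock genes rose in 27 of 34 cases and fell in 5 (median 0.79). Hspa8, the constitutive HSP70, rose from 3684 and 3716 to 11084 and 11161 CPM (1.59 ± 0.021), and the heat shock factor gene Hsf1 rose from 68.5 and 74.2 to 205 and 216 CPM (1.56 ± 0.044). Hspa1a rose from 50 and 48.8 to 149 and 162 CPM (1.65 ± 0.046) but shares most of its sequence with Hspa1b. The small heat shock gene Hspb8 fell from 108 and 104 to 47.3 and 47.1 CPM (-1.17 ± 0.043). Proteasome subunits were spread around a median of 0.17, with 21 of 36 higher and 9 lower, and with library totals 6 higher and 27 lower. Psmd8 rose from 90.9 and 91 to 311 and 308 CPM (1.77 ± 0.032) and Psme4, an alternative activator, fell from 97.3 and 98.5 to 57.7 and 60.4 CPM (-0.73 ± 0.045).

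Genes of glucose use itself divided enzyme by enzyme. Their shares lay near the 36.7% higher and 44.8% lower of all genes tested. In uptake and upper glycolysis 7 of 17 tested members (41.2%) rose and 7 fell (5 and 11 with library totals). Hk2, the inducible hexokinase, rose from 33.1 and 32.5 to 125 and 124 CPM (1.92 ± 0.043), and the main transporter gene Slc2a1 (GLUT1) rose from 99 and 97.7 to 178 and 186 CPM (0.89 ± 0.035). The high-affinity transporter Slc2a3 (GLUT3) fell from 4.86 and 5.6 to 0.461 and 0.606 CPM (-3.29 ± 0.33). Of the bifunctional enzymes that set fructose 2,6-bisphosphate, Pfkfb3 rose from 23.7 and 23.4 to 32.5 and 38.3 CPM (0.59 ± 0.077), a call lost with library totals (0.13, adjusted p = 0.113), and Pfkfb4 fell from 20.3 and 23.4 to 5.8 and 5.48 CPM (-1.95 ± 0.12). Among lactate and pyruvate genes 12 of 26 (46.2%) rose and 9 (34.6%) fell, or 7 and 14 with library totals. Ldhb, the lactate dehydrogenase subunit, fell from 180.2 and 178 to 16.9 and 18.7 CPM (-3.33 ± 0.057). Pck2, which makes phosphoenolpyruvate in mitochondria, rose from 129 and 129.9 to 366 and 379.9 CPM (1.53 ± 0.033). Kinases and a phosphatase that act on pyruvate dehydrogenase fell together: Pdk4 from 74.3 and 74.3 to 19.2 and 18.7 CPM (-1.97 ± 0.067), Pdk2 (-2.59 ± 0.18) and the phosphatase Pdp1 (-2.54 ± 0.09). Of the lactate carriers, Slc16a1 (MCT1) rose (1.35 ± 0.042) and Slc16a3 (MCT4) fell (-2.33 ± 0.15). G6pdx, the entry enzyme of the pentose phosphate pathway, fell from 178 and 179.5 to 78 and 77.6 CPM (-1.20 ± 0.038), and Tkt, of its non-oxidative branch, rose from 355 and 354 to 694 and 711 CPM (0.99 ± 0.028). 

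Txnip, whose product limits glucose uptake and whose gene responds to glucose through MondoA and its partner MLX, fell from 43.7 and 51.8 to 0.246 and 0.454 CPM (-7.08 ± 0.17). Its window above holds the carbohydrate response element, found in 0.614% of windows, 85 to 69 bases before the start. Of 68 genes with this element, 19.1% fell and 26.5% rose by more than 2-fold, against 26.3% and 15.1% of all genes with a window. These genes thus did not share the direction of Txnip. Arrdc4, another known MondoA target, rose from a low level, from 0.81 and 0.574 to 1.84 and 2.73 CPM (1.72 ± 0.24), while its relative Arrdc3 fell from 44.8 and 42.5 to 5 and 4.33 CPM (-3.22 ± 0.085). Mlx rose from 20.7 and 22.3 to 53 and 53.5 CPM (1.31 ± 0.059).

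Mitochondrial energy genes moved little. In the respiratory chain 46 of 66 tested members rose and 13 fell, 1 and 1 by more than 2-fold (median 0.29), and with library totals the balance turned to 14 higher and 39 lower. Tricarboxylic acid cycle genes rose by at most 0.90 on the log2 scale. Idh1, the cytosolic isocitrate dehydrogenase listed with them, fell from 33.8 and 33.8 to 7.18 and 8.42 CPM (-2.12 ± 0.082). Mitochondrial chaperones and proteases rose more often, 12 of 17, among them Hspa9 from 641 and 641 to 1970.0 and 1971 CPM (1.62 ± 0.026) and Lonp1 from 109.8 and 108 to 304 and 318 CPM (1.52 ± 0.035). Oma1, the protease that relays mitochondrial stress, fell from 9.96 and 11.1 to 2.58 and 1.85 CPM (-2.25 ± 0.16). Fatty acid oxidation genes fell more often than they rose, 17 against 8 of 28, with Acadm at -2.63 ± 0.061.

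Nutrient sensing genes changed in both directions: of 32 genes of mTORC1 and its control 19 rose and 11 fell, and with library totals 8 and 18. Flcn (folliculin), which with its partners FNIP1 and FNIP2 activates RagC and RagD on the lysosome, rose from 49.3 and 47.2 to 439.9 and 439 CPM (3.19 ± 0.038). Both partners rose, Fnip1 from 47.8 and 49.1 to 287 and 293 CPM (2.58 ± 0.039) and Fnip2 from 21.1 and 21.4 to 83.8 and 94.1 CPM (2.07 ± 0.058). So did the GTPase genes themselves: Rragd from 0.0926 and 0.383 to 7.03 and 5.72 CPM (4.74 ± 0.31) and Rragc from 88.4 and 87.4 to 334 and 318 CPM (1.89 ± 0.036). Tsc1, of the complex that inhibits mTORC1, rose from 52.8 and 48.7 to 168 and 172 CPM (1.74 ± 0.045). Other inhibitors fell: Depdc5, of GATOR1, from 35.7 and 36.6 to 4.94 and 5.03 CPM (-2.86 ± 0.084), Sesn1 from 71.3 and 70.3 to 12.8 and 13.7 CPM (-2.42 ± 0.076), Sesn3 (-1.75 ± 0.09) and Ddit4l from 17.7 and 15.1 to 0.246 and 0.121 CPM (-6.46 ± 0.26). Sesn2, the ATF4-responsive sestrin, rose from 21.1 and 21.5 to 31.7 and 32.3 CPM (0.59 ± 0.064) but was not called with library totals (0.13, adjusted p = 0.0597), and Ddit4 (REDD1) fell from 145 and 141 to 79.9 and 81.4 CPM (-0.82 ± 0.041). Of 15 AMPK-related genes 6 rose and 5 fell, against 4 and 9 with library totals. Camkk2, an upstream kinase, fell from 26.8 and 24.1 to 11.7 and 12.3 CPM (-1.08 ± 0.083).

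In the autophagy and lysosome system, proton pump and receptor genes mostly rose. Of V-ATPase subunits, which acidify the lysosome, 15 of 18 tested members rose and 2 fell, 13 by more than 2-fold (median 1.28), with Atp6v0b from 45 and 42 to 341 and 319 CPM (2.92 ± 0.047) and Atp6v1d from 32 and 31.5 to 166 and 159.7 CPM (2.36 ± 0.045). Of autophagy receptors, which select cargo, 11 of 13 tested members rose and 2 fell: Stbd1, for glycogen, rose from 9.61 and 8.59 to 66.9 and 70.5 CPM (2.92 ± 0.069), Ncoa4, for ferritin, from 104 and 105 to 297 and 295 CPM (1.51 ± 0.033) and Optn from 20.2 and 18.1 to 58.9 and 66.8 CPM (1.71 ± 0.064). The mitochondrial receptor Bnip3 rose from 22.2 and 21.8 to 61.7 and 62.2 CPM (1.49 ± 0.048) and Fundc1, another, fell from 43.9 and 44.3 to 18.9 and 18.6 CPM (-1.23 ± 0.066). Conjugation genes rose in 12 of 16 cases and the other 4 were not called, with Atg16l1 from 17 and 17.7 to 52.1 and 51.8 CPM (1.58 ± 0.059); with library totals 6 were higher and 6 lower. Among initiation genes Atg13 rose from 30.3 and 32.5 to 79.3 and 76.8 CPM (1.32 ± 0.055), whereas Ulk2 fell from 54.1 and 53.5 to 13.7 and 11.4 CPM (-2.10 ± 0.07) and Pik3r4 from 35.8 and 35.8 to 13 and 15.2 CPM (-1.34 ± 0.082). Lysosomal enzymes were divided, 25 of 44 higher and 16 lower (21 each with library totals): the sialidase Neu1 rose from 16 and 16.1 to 102 and 98 CPM (2.64 ± 0.05) and the calcium channel Mcoln1 from 47.2 and 50.4 to 225 and 222 CPM (2.20 ± 0.043), while heparan sulfate enzymes Sgsh (-2.77 ± 0.16) and Naglu (-1.79 ± 0.092) fell. Of the transcription factors, Foxo3 rose from 27.2 and 24.4 to 53.6 and 62.9 CPM (1.17 ± 0.072) and Foxo4 fell from 32 and 32.2 to 4.79 and 4.18 CPM (-2.84 ± 0.096).

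Lipid synthesis genes fell at several steps. Of sterol genes 5 of 26 tested members rose and 18 fell, 11 by more than 2-fold. Idi1, which isomerises isopentenyl diphosphate, fell from 83 and 83.7 to 5.22 and 6.27 CPM (-3.86 ± 0.069). Scap, the escort of SREBP factors, rose from 85.7 and 76.2 to 170.0 and 179 CPM (1.11 ± 0.047), and Hmgcs1 was listed at 0 counts in all 4 libraries. Cholesterol export fell as well, with Abca1 from 12.3 and 13.8 to 1.78 and 1.42 CPM (-3.02 ± 0.13) and Scarb1 from 102 and 95.8 to 36.8 and 33.7 CPM (-1.49 ± 0.052). For fatty acids, Elovl6, an elongase, fell from 67.8 and 64.7 to 2.46 and 3 CPM (-4.60 ± 0.094). Lipid droplet genes went up, the coat protein gene Plin2 from 79.7 and 81.5 to 221 and 219 CPM (1.45 ± 0.038) and Dgat2, which makes triglyceride, from 13.4 and 14 to 38 and 36.2 CPM (1.44 ± 0.071); the lipase Pnpla2 rose too (1.28 ± 0.063) and Lipe (-2.08 ± 0.2) and Mgll (-2.75 ± 0.2) fell.

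Metal and redox genes held some of the steepest rises, but changed in both directions. Of 17 iron and metallothionein genes 10 rose and 5 fell, and with library totals 6 rose and 9 fell. The steepest fall of that list was larger than its steepest rise. The metallothioneins, small zinc- and copper-binding proteins, rose: Mt2 from 45.7 and 48.2 to 761 and 715 CPM (3.97 ± 0.04) and Mt1 from 85.9 and 87.6 to 1121 and 1053 CPM (3.65 ± 0.04). Slc30a1, which exports zinc and shares their regulator MTF1, rose from 5.65 and 5.93 to 27 and 24.2 CPM (2.14 ± 0.096), and Slc39a10, a zinc importer, fell from 28.3 and 26.8 to 6.08 and 7.06 CPM (-2.07 ± 0.091). Tfrc, the transferrin receptor, rose from 66.6 and 67.2 to 369 and 359 CPM (2.44 ± 0.04). Hmox1, heme oxygenase, rose from 101 and 93.7 to 1989 and 1972 CPM (4.34 ± 0.035). The NRF2 gene Nfe2l2 rose from 85.9 and 90.8 to 237 and 237 CPM (1.43 ± 0.036) and its inhibitor Keap1 fell from 90.3 and 84.1 to 31.5 and 31.4 CPM (-1.47 ± 0.052). The defence list as a whole was divided much as all genes were, with 12 of 31 (38.7%) higher and 14 (45.2%) lower. Gsta4 rose from 12.3 and 16 to 114 and 110.4 CPM (2.98 ± 0.083) and Sod3, extracellular superoxide dismutase, fell from 29.5 and 27.9 to 5.8 and 6 CPM (-2.28 ± 0.072).

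Secreted ligands changed in both directions. Of 45 growth factor and cytokine genes 18 rose and 16 fell, and with library totals the balance was 16 to 21. Vegfa, the angiogenic factor, rose from 42.8 and 47 to 364 and 364 CPM (3.02 ± 0.042) and Adm2, an ATF4-responsive peptide, from 0.394 and 0.479 to 9.67 and 7.96 CPM (4.33 ± 0.21). Angpt1, the ligand of TIE2, fell from 25.5 and 24.8 to 0.737 and 1.03 CPM (-4.83 ± 0.15), Fgf7 from 231 and 231 to 64.3 and 62.9 CPM (-1.86 ± 0.039) and Il33, an alarmin, from 24.4 and 24.3 to 1.41 and 1.03 CPM (-4.32 ± 0.19). Chemokine and prostaglandin genes fell in 12 of 21 cases and rose in 5. Ccl2 fell from 222 and 235 to 25.2 and 25.3 CPM (-3.18 ± 0.043) and Cxcl1 from 543 and 531 to 25 and 26.7 CPM (-4.38 ± 0.045). Ptgs2, cyclooxygenase 2, rose from 32.5 and 32.4 to 872 and 884 CPM (4.76 ± 0.033), as did Pla2g4a, which frees its substrate (1.18 ± 0.04).

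Receptor tyrosine kinases fell more often than they rose, 21 against 10 of 35. Pdgfra fell from 29.4 and 31.9 to 5.5 and 5.97 CPM (-2.42 ± 0.079), Ephb3 from 73.3 and 69 to 7.92 and 7.54 CPM (-3.20 ± 0.072) and the coreceptor Nrp1 from 135 and 129.9 to 38.3 and 35.6 CPM (-1.84 ± 0.063). Kdr, VEGF receptor 2, rose from 1.92 and 2.2 to 54.8 and 52.8 CPM (4.70 ± 0.13). Kdr is also an endothelial marker: the summed level of 9 such markers was 6.39 to 7.27 CPM fed and 56.6 to 58.6 CPM starved, with Kdr giving nearly all of the starved sum, and the defining markers Emcn, Cldn5 and Tie1 had no count in any of the 4 libraries. Fgfr2 rose from 37.1 and 37.4 to 129 and 135 CPM (1.82 ± 0.042). Downstream of insulin and IGF receptors Irs1 fell from 26.9 and 25.3 to 7.77 and 8.33 CPM (-1.70 ± 0.088) and Pik3r1, a regulatory subunit of PI3 kinase, from 143 and 147 to 32.6 and 32.9 CPM (-2.15 ± 0.051).

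Of MAPK feedback phosphatases and Sprouty genes 11 of 21 rose and 5 fell (11 and 10 with library totals). Of immediate-early and MYC factors 19 of 32 rose and 10 fell, which turned to 13 and 15 with library totals. Dusp4, a nuclear MAPK phosphatase, rose from 4.52 and 4.62 to 78.6 and 82.7 CPM (4.14 ± 0.08), Spry1 from 2.25 and 1.77 to 14.4 and 14.2 CPM (2.83 ± 0.18) and the ETS factor Etv5 from 16.3 and 15.4 to 48.2 and 50.4 CPM (1.64 ± 0.069), while Dusp7 fell from 54 and 51.9 to 25.7 and 25.4 CPM (-1.05 ± 0.058). Maff, a small MAF factor, rose from 7.97 and 8.9 to 226 and 235 CPM (4.77 ± 0.056), Mafk from 17.4 and 18.1 to 105 and 108 CPM (2.59 ± 0.047) and Klf5 from 4.47 and 4.69 to 40.3 and 44.4 CPM (3.21 ± 0.1). Klf2 fell from 20.3 and 17 to 4.08 and 4.3 CPM (-2.16 ± 0.13). Of circadian clock genes 14 of 22 tested members rose and 6 fell. The activator Arntl (BMAL1) rose from 6.9 and 6.96 to 32.8 and 32.3 CPM (2.23 ± 0.085), and so did the repressors Cry1 from 14.4 and 12.8 to 55.3 and 59.4 CPM (2.08 ± 0.075), Nr1d1 from 49 and 49.6 to 273 and 281 CPM (2.49 ± 0.039) and Gm129 (Ciart) from 3.52 and 2.44 to 68.7 and 70 CPM (4.54 ± 0.11). Per3 fell from 32.6 and 33.1 to 5.77 and 5.66 CPM (-2.52 ± 0.095), Per2 from 14.8 and 15.4 to 5.93 and 6.69 CPM (-1.26 ± 0.11) and the output factor Dbp from 19.4 and 20.1 to 6.45 and 7.57 CPM (-1.49 ± 0.11). The groups are 12 h apart and clock genes follow time, so starvation and time cannot be told apart here.

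Cell death genes were mostly lower. Of death receptors and caspases 6 of 27 tested members rose and 20 fell (median -0.94). Casp12 fell from 36.9 and 37.3 to 6.17 and 5.69 CPM (-2.64 ± 0.078), Casp6 (-2.63 ± 0.13), Fadd, the adaptor of death receptors, (-2.32 ± 0.14) and Fas from 15.3 and 17.9 to 3.81 and 3.33 CPM (-2.21 ± 0.12). Tnfrsf12a, the TWEAK receptor, rose from 71 and 74.6 to 449 and 432 CPM (2.60 ± 0.038). In the BCL2 family the killers divided: Pmaip1 (NOXA) rose from 3.94 and 3.47 to 28.1 and 25.5 CPM (2.85 ± 0.094) and Bax from 60.9 and 58.4 to 160.4 and 153 CPM (1.40 ± 0.041). Bcl2l11 (BIM) fell from 44 and 42.9 to 4.82 and 5.3 CPM (-3.10 ± 0.11) and Bmf from 8.24 and 7.61 to 0.246 and 0.424 CPM (-4.55 ± 0.27). The protectors Bcl2 (-1.19 ± 0.13) and Mcl1 (-0.52 ± 0.041) fell and Bcl2l1 was not called (40.5 and 39.6 CPM fed and 38.6 and 41.3 CPM starved; adjusted p = 0.958), but was called lower with library totals (-0.46). Of p53 and its targets 15 of 28 rose and 10 fell (10 and 14 with library totals): Mdm2 rose from 65 and 65.5 to 207 and 213 CPM (1.68 ± 0.037) and Phlda3, which restrains AKT, fell from 88.6 and 88.9 to 12.8 and 11.1 CPM (-2.90 ± 0.059). Gadd45b from 64.5 and 62.7 to 289 and 278 CPM (2.16 ± 0.043) and Gadd45g from 32.9 and 33.7 to 176 and 170.5 CPM (2.38 ± 0.046) rose with Gadd45a, whereas Gas1, induced when growth stops, fell from 1368 and 1360.1 to 18.6 and 17 CPM (-6.26 ± 0.048).

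Cell cycle genes fell on both the driving and the braking side. Of G1 cyclins, CDK inhibitors and E2F factors 6 of 26 tested members rose and 20 fell, 15 by more than 2-fold. Cyclin D1, Ccnd1, fell from 233 and 238 to 34.3 and 31.9 CPM (-2.83 ± 0.046) and Ccnd3 from 189 and 179.8 to 35.9 and 36.1 CPM (-2.36 ± 0.046). The inhibitors of cyclin D kinases fell as well: Cdkn2c from 28.9 and 27.3 to 3.38 and 3.21 CPM (-3.09 ± 0.099), Cdkn2d (-3.22 ± 0.11) and Cdkn2b (-1.55 ± 0.061), and Cdkn1b (p27) from 52.4 and 57.2 to 22.4 and 22.3 CPM (-1.30 ± 0.06). The repressor E2f8 fell from 16 and 17.2 to 0.43 and 0.545 CPM (-5.08 ± 0.16), and E2f4, which acts in resting cells, rose from 101 and 101 to 256 and 269 CPM (1.38 ± 0.037). Of mitotic genes 5 of 59 tested members rose and 54 fell, 45 of them by more than 2-fold (median -1.60). The entry kinase Cdk1 fell from 279 and 278 to 118 and 117 CPM (-1.24 ± 0.033), Plk1 from 91.5 and 91.8 to 19.3 and 19.1 CPM (-2.25 ± 0.056) and the motor gene Kif14 from 23.8 and 24.6 to 1.41 and 0.696 CPM (-4.52 ± 0.15). Wee1, which holds CDK1 inactive, rose from 26.9 and 28.5 to 48.4 and 46.6 CPM (0.78 ± 0.058). The cell cycle homology region was in 16 of 48 mitotic windows (33.3%) against 13.1% of all windows, and in 2 copies in Cdk1. Such a share was not particular to mitotic genes, since the region was also in 5 of 17 amino acid transporter windows (29.4%). Of all genes holding it 29.6% fell by more than 2-fold, close to the 26.3% of all genes with a window.

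DNA repair by recombination and Fanconi genes fell in 24 of 31 cases and rose in 5: Brca2 fell from 28.9 and 27.5 to 4.3 and 3.82 CPM (-2.80 ± 0.099) and Xrcc2 from 17.8 and 18.6 to 1.69 and 1.54 CPM (-3.49 ± 0.13). Nbn, of the break sensor complex, rose from 35.7 and 35.4 to 86.2 and 82.8 CPM (1.25 ± 0.054). Condensin, cohesin and chromosome genes fell in 22 of 29 cases, with Hmgb2 from 461 and 473 to 116 and 108 CPM (-2.06 ± 0.039) and H2afx from 117 and 115 to 17.1 and 18.8 CPM (-2.70 ± 0.05). In replication 28 of 48 fell and 12 rose, Clspn (claspin) at -3.07 ± 0.075 and Cdt1, a licensing factor, at 1.24 ± 0.035. Of nucleotide synthesis genes 20 of 30 tested members rose and 8 fell, or 14 and 14 with library totals. Among them were Atic, of purine synthesis, up from 103 and 104 to 323 and 319 CPM (1.63 ± 0.033) and Rrm2, the ribonucleotide reductase subunit of S phase, down from 145 and 152 to 35.5 and 33.3 CPM (-2.11 ± 0.042).

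Enzymes that act on H3K9 changed in both directions. Of 11 demethylases 9 rose and 2 fell, and of 12 methyltransferases and HP1-related genes 4 rose and 8 fell. With library totals 5 demethylases rose and 4 fell, and 0 of the methyltransferase group rose and 10 fell. Cbx5 (HP1 alpha) fell from 427 and 426 to 142 and 147 CPM (-1.56 ± 0.032) and Uhrf1, which maintains DNA methylation, from 220.1 and 222 to 86.1 and 97.1 CPM (-1.27 ± 0.044). Dnmt1, its methyltransferase partner, fell from 315 and 302 to 181 and 192 CPM (-0.73 ± 0.035). Tet1 fell from 7.36 and 7.7 to 0.675 and 0.545 CPM (-3.62 ± 0.3) and Tet2 rose from 13.9 and 13.6 to 27.5 and 32.1 CPM (1.12 ± 0.082). Among NAD genes Sirt1, a deacetylase, rose from 25.5 and 23.4 to 161 and 159.6 CPM (2.71 ± 0.052) and Nampt, which recycles nicotinamide to supply it, from 44.9 and 45.1 to 179.6 and 183 CPM (2.01 ± 0.04). Hdac4 rose from 10.3 and 8.95 to 44.9 and 54.2 CPM (2.37 ± 0.09) and Hdac1 fell from 159.5 and 165 to 77.9 and 80.1 CPM (-1.04 ± 0.038).

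In RNA processing, kinases of splicing factors rose and several of their substrates fell. Clk4 rose from 30.2 and 29.5 to 123 and 122 CPM (2.04 ± 0.046), Clk3 from 48.5 and 47 to 166 and 168 CPM (1.81 ± 0.041) and Srpk1 from 64.6 and 62.5 to 191 and 187 CPM (1.57 ± 0.041). Srsf1 fell from 328 and 337 to 145 and 137 CPM (-1.24 ± 0.036), Srsf3 from 304 and 309 to 173 and 173 CPM (-0.82 ± 0.031) and Srsf5 (-0.67 ± 0.037), though 15 of all 21 genes listed rose. Among transport genes Xpot, the tRNA exporter, rose from 160.3 and 157 to 415 and 420.3 CPM (1.40 ± 0.032) and Kpna2, an importin, fell from 376 and 380.3 to 99.5 and 95.3 CPM (-1.96 ± 0.034).

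**Figure D3:**
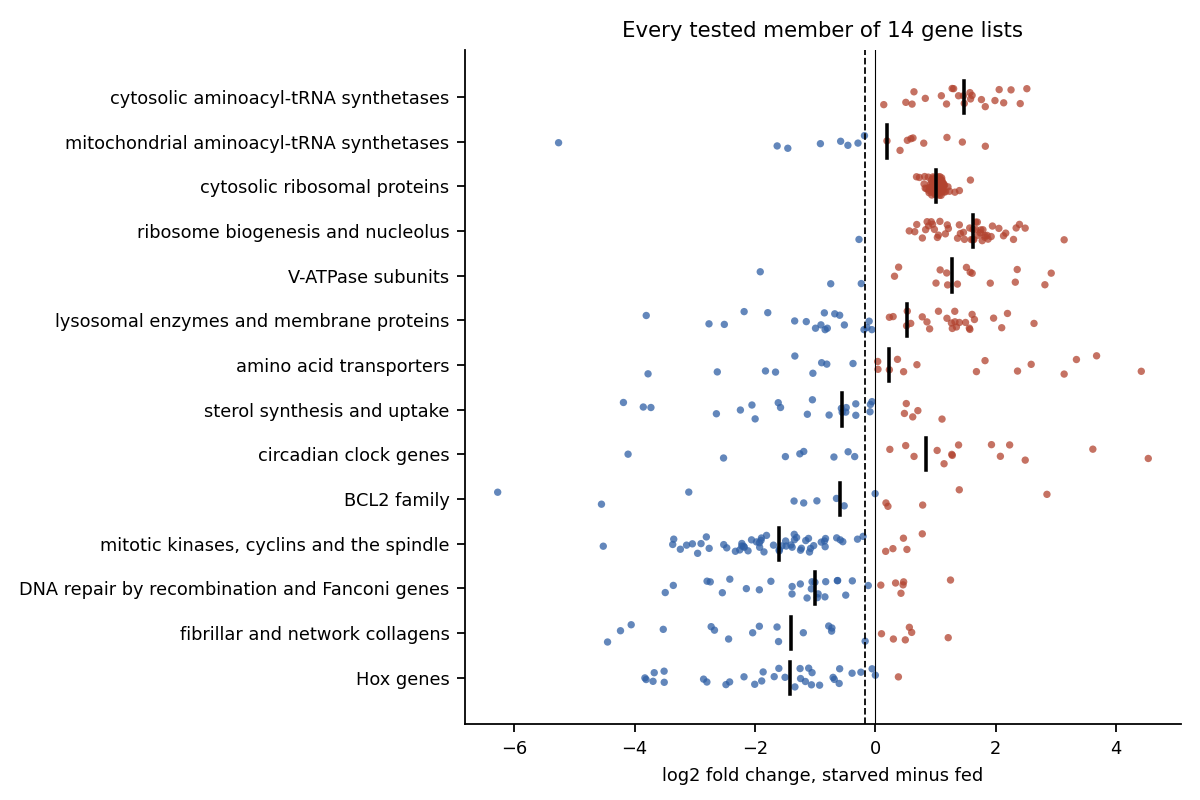
Log2 fold changes, starved minus fed, of every tested member of 14 lists (red above 0, blue below), with each list's median as a black bar and the median of all genes tested as a dashed line. Cytosolic synthetases and ribosomal proteins lie wholly above 0, mitotic genes almost wholly below it, and transporters, sterol, clock and BCL2 family genes spread over both sides.

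Matrix production fell at the level of collagens and their processing. Of fibrillar and network collagens 6 of 22 tested members rose and 15 fell, 12 falling by more than 2-fold (median -1.40). Col1a2 fell from 6199 and 6019 to 353 and 381 CPM (-4.06 ± 0.033), Col3a1 from 626 and 615 to 27 and 29.8 CPM (-4.45 ± 0.041) and Col6a1 from 952 and 921 to 242 and 250.4 CPM (-1.93 ± 0.03). The basement membrane chain Col4a1 rose from 276 and 264 to 394 and 427 CPM (0.60 ± 0.035). Of collagen-processing enzymes 5 of 21 tested members rose and 16 fell: the crosslinking oxidases Loxl1 from 391 and 386 to 98.7 and 104 CPM (-1.94 ± 0.037) and Loxl2 (-1.81 ± 0.089) fell and P4ha1, a prolyl hydroxylase also known as a hypoxia gene, rose from 145 and 147 to 358 and 374 CPM (1.33 ± 0.032). Other matrix genes parted from collagens. Fn1, fibronectin, rose from 3663 and 3449.7 to 7574 and 8594 CPM (1.18 ± 0.038), Lamb1, a laminin chain, from 159 and 148 to 598 and 629 CPM (2.00 ± 0.036) and Bgn, biglycan, from 2316 and 2296 to 4422 and 4615 CPM (0.97 ± 0.025). Vcan, versican, fell from 995 and 955 to 76.9 and 86.8 CPM (-3.57 ± 0.045) and Emilin1 from 314 and 302 to 25.4 and 26.3 CPM (-3.57 ± 0.048). Proteases and inhibitors fell in 20 of 29 cases. Adamts5, an aggrecan-cleaving enzyme, fell from 87.2 and 84.2 to 9.7 and 7.87 CPM (-3.29 ± 0.071) and the inhibitor Timp1 rose from 244 and 249.6 to 460.5 and 446 CPM (0.88 ± 0.029).

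Of 27 integrins and adhesion genes 12 were higher and 12 lower, and with library totals 6 and 16: the fibronectin receptor chain Itga5 fell from 309 and 307 to 95.3 and 102 CPM (-1.64 ± 0.036) and the collagen receptor chain Itga11 from 78.3 and 81.4 to 13 and 13.6 CPM (-2.58 ± 0.076). The focal adhesion gene Zyx rose from 496 and 482 to 1079 and 1077 CPM (1.14 ± 0.027). Contractile genes were mixed as well, with Tagln up from 574 and 575 to 2855 and 2801 CPM (2.30 ± 0.026) and Tpm1 down from 1469.7 and 1500.0 to 677 and 697 CPM (-1.11 ± 0.026). Of YAP-TEAD targets 14 of 18 tested members rose and 4 fell, among them Ctgf from 59.6 and 59.9 to 620.0 and 634 CPM (3.39 ± 0.034) and F3, tissue factor, from 49 and 47.6 to 251 and 238 CPM (2.34 ± 0.047). Nuak2 fell from 9.12 and 11 to 1.07 and 1.48 CPM (-2.97 ± 0.19).

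Wnt and Hox genes mostly fell, while TGF-beta and BMP genes divided. Of Wnt genes 4 of 29 tested members rose and 17 fell (median -1.27, and -1.19 with a member at 0 counts set to its bound). The secreted antagonists Sfrp2 from 878 and 863 to 111 and 110.5 CPM (-2.97 ± 0.032), Sfrp1 (-4.19 ± 0.14) and Dkk3 from 187 and 185 to 11 and 10.1 CPM (-4.14 ± 0.074) fell, as did the receptor Fzd2 from 140.2 and 135 to 12.8 and 14.4 CPM (-3.34 ± 0.055). In the TGF-beta and BMP pathway 15 of 35 tested members rose and 15 fell, or 12 and 17 with library totals. Tgfb3 fell from 121 and 119 to 4.79 and 3.57 CPM (-4.84 ± 0.081) and the receptor Tgfbr2 from 110.3 and 111 to 32.1 and 34.1 CPM (-1.74 ± 0.046). The BMP antagonist Grem1 rose from 27.8 and 29.7 to 346 and 352 CPM (3.60 ± 0.046). The inhibitory SMADs parted: Smad7 rose from 30.6 and 27.7 to 144 and 127 CPM (2.22 ± 0.061) and Smad6 fell from 48.2 and 48.7 to 11.3 and 9.81 CPM (-2.20 ± 0.073). Of Hox genes, which record position along the body, 1 of 34 rose and 27 fell (median -1.42, or -1.50 without the member at 0 counts in both groups), Hoxb8 from 7.99 and 9.62 to 0.491 and 0.757 CPM (-3.81 ± 0.29) and Hoxa5 from 6.04 and 5.07 to 0.43 and 0.424 CPM (-3.69 ± 0.28) among the steepest. Sox9, a cartilage factor, fell from 55.3 and 52.7 to 6.72 and 7.03 CPM (-2.97 ± 0.081) and Pparg, an adipocyte factor, rose from 6.67 and 6.05 to 32 and 31.4 CPM (2.32 ± 0.1), with the adipocyte genes Plin1, Cfd and Cd36 at 0 counts in all 4 libraries.

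Interferon-stimulated genes fell in 23 of 42 cases and rose in 6 (median -0.78, and -0.66 with members at 0 counts at their bound). The RNA sensors fell, Ifih1 (MDA5) from 5.28 and 4.74 to 0.491 and 0.303 CPM (-3.65 ± 0.24) and Ddx58 (RIG-I) from 16.6 and 17 to 3.96 and 3.66 CPM (-2.14 ± 0.085). B2m, the MHC class I light chain, rose from 159 and 164 to 299.6 and 283 CPM (0.85 ± 0.03).

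**Figure D4:**
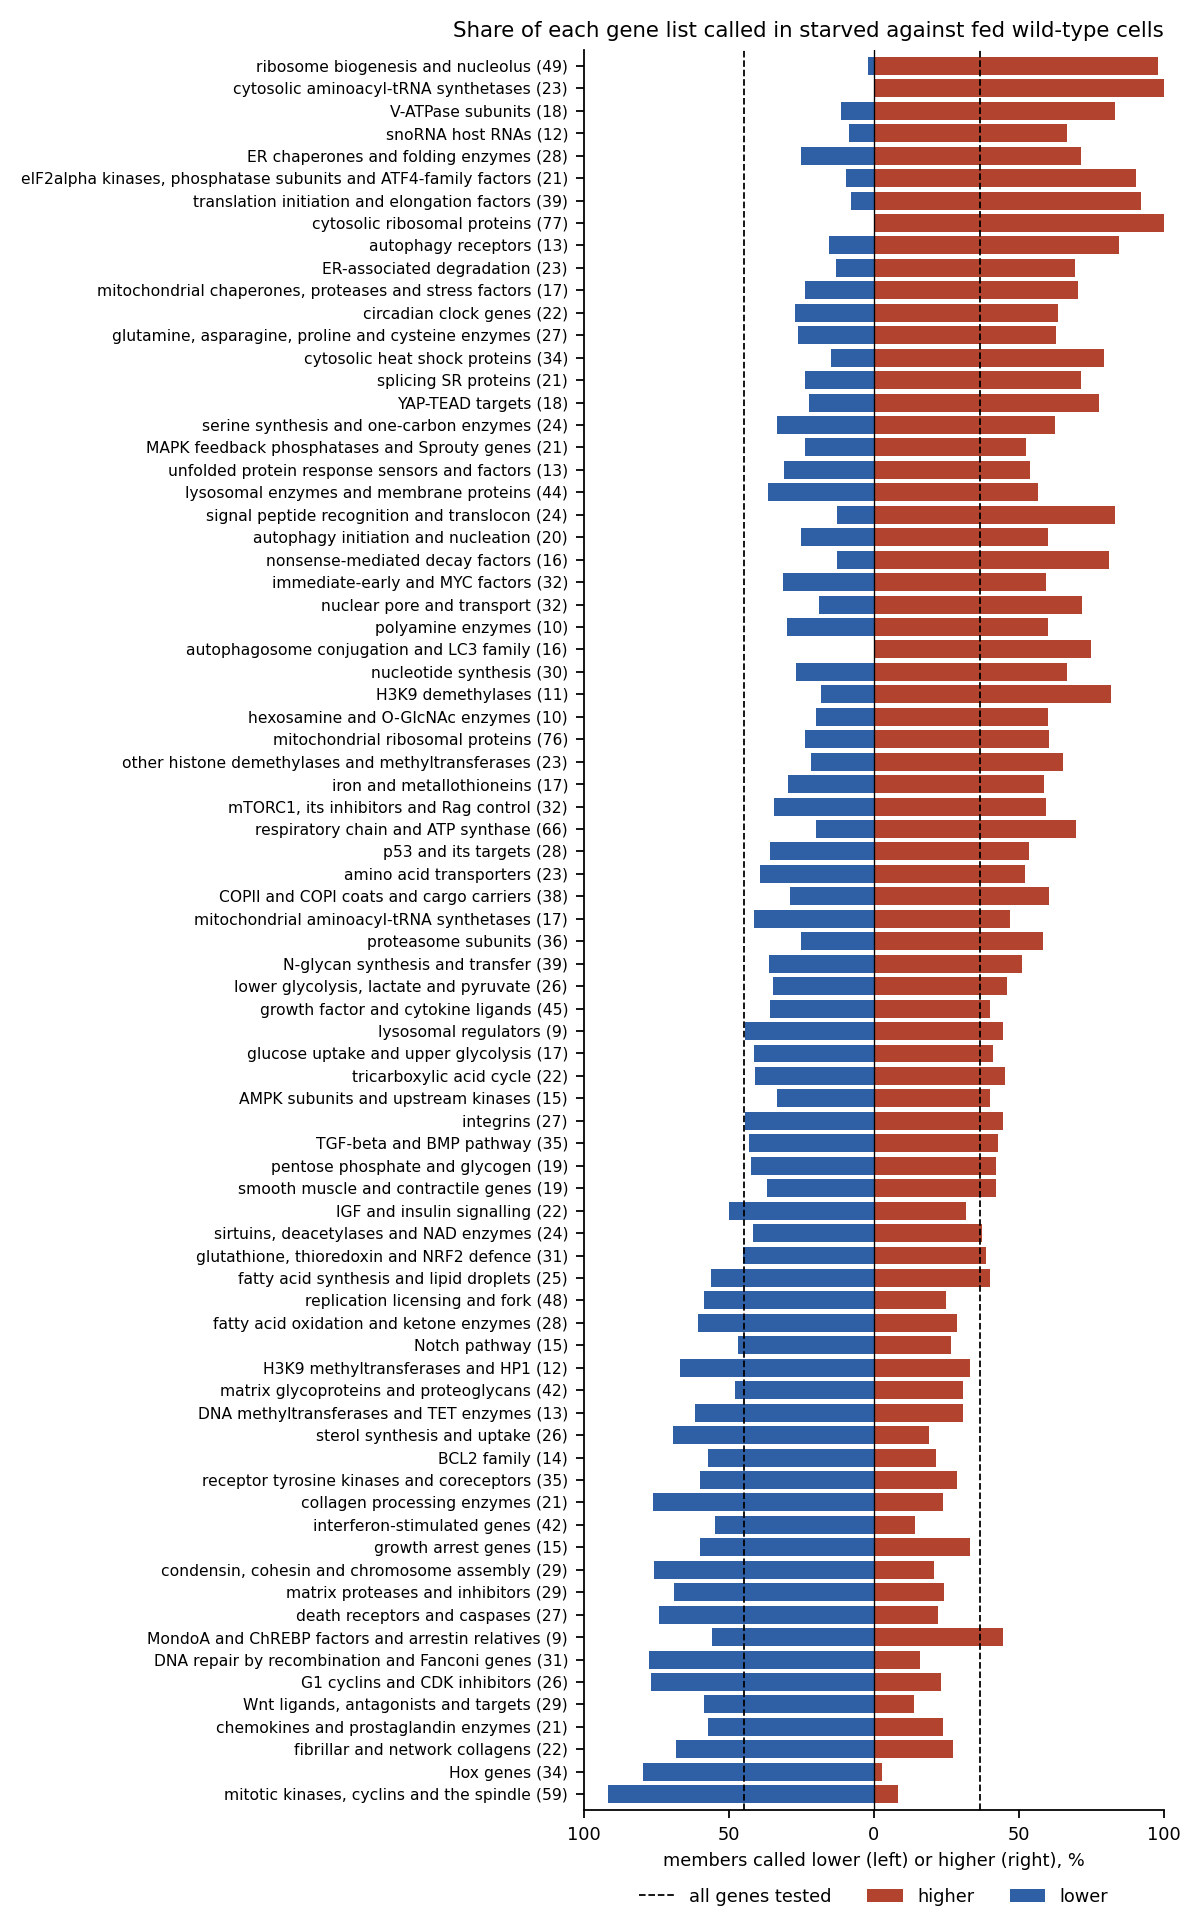
Share of the tested members of each list (number in brackets) called lower (blue, to the left) or higher (red, to the right), in order of the list's median; the dashed lines are the shares over all genes tested, 44.8% and 36.7%. Ribosome biogenesis and cytosolic synthetases are at the top and Hox and mitotic genes at the bottom.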

How the data were processed

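RNA sequencing read counts of 4 wild-type libraries were analysed. The authors deposited whole-number counts per RefSeq transcript, not normalised, in a table of 31055 rows for 23366 symbols; mouse build mm9, TopHat2 2.0.9 and bedtools are listed, without roles, per the submitters' processing notes. How strand, reads with several matches and read filters were handled is not given in the sources used here, so overlapping, antisense and duplicated genes are uncertain. A further 4 value columns matched no labelled sample and were not used. For each symbol, the row with the most counts in the 8 labelled libraries was used (4447 symbols had several rows, which repeat reads and were not summed).

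The test was edgeR's quasi-likelihood F test (edgeR 4.0.16, R 4.3.3) after filterByExpr and TMM scaling. A mean for each of the 4 groups was fitted to all 8 libraries, so the KO-labelled libraries also inform the spread (4 residual degrees of freedom). p-values were adjusted by Benjamini-Hochberg over all 14418 genes, with calls at 0.05. The filter kept 115 genes that had no count in any of the 4 WT libraries. SE is the size of the log2 change divided by the root of the F statistic. The common biological coefficient of variation was 0.0341. Folds against 0 counts are bounds at 3 counts per library. The test was checked on simulated counts in which only a small part of the genes changed between the WT groups. Far more genes were called here (81.6%), so the simulation did not check the scaling under such a shift. The counts of the 2 libraries of a group differed beyond sampling noise (chi-square per degree of freedom 3.31 fed and 6.01 starved). The counts of either library were thus not a copy of the other's. These values cannot exclude the same library sequenced again, since the counting of reads, whose handling is not given, can itself add spread.

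The comparison, its 88 gene lists (2200 of 2204 symbols in the table) and the tests were chosen with earlier results of these data known, and no list was tested as a set. Named genes are the 20 steepest rises and falls of at least 20 CPM, up to 4 rises and falls per list of at least 5 CPM, genes chosen by name for their role, the 10 with the most counts, and genes at 0 counts in one group with at least 100 in the other; the text gives a part of these, and some are not reported here. Alternatives were library totals, DESeq2 1.42.0, other filters, WT libraries only, summed rows, a replicate block and leaving out each library.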

Additional observations from a re-analysis of the deposited data

Results flagged for a closer look

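Of the 285 tested genes named in the report, 18 were called in opposite directions by starvation in WT and in KO-labelled cells, and the difference between the responses also passed edgeR's quasi-likelihood test as an interaction (adjusted p under 0.05). The interaction alone was called for 244 of the 285. Opposite calls were not counted over all genes tested, so the 18 cannot be read as many or few. Values below are log2 fold changes, starved minus fed, first in WT and then in KO-labelled cells. The largest differences among genes that rose in WT were those of Grem1 (3.60 against -0.26, difference 3.86), Gadd45g (2.38 against -0.89, difference 3.26), Arrdc4 (1.72 against -1.53, difference 3.25), Smad7 (2.22 against -0.29, difference 2.51), Bnip3 (1.49 against -0.83, difference 2.33) and Pfkfb3 (0.59 against -1.67, difference 2.26). Smaller ones were those of Fgfr2 (1.82 against -0.39, difference 2.22), Lamb1 (2.00 against -0.12, difference 2.12), Slc38a2 (0.69 against -1.08, difference 1.77), Wee1 (0.78 against -0.83, difference 1.61), Pmm1 (1.30 against -0.13, difference 1.43) and Thy1 (0.70 against -0.26, difference 0.96). Genes that fell in WT and rose in KO-labelled cells were Abca1 (-3.02 against 0.40, difference -3.42), Sox9 (-2.97 against 0.33, difference -3.30), Itga11 (-2.58 against 0.44, difference -3.02) and Naglu (-1.79 against 0.99, difference -2.78), and also Tpm1 (-1.11 against 0.20, difference -1.32) and Nop10 (-0.27 against 0.32, difference -0.59).

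Kdm3a itself was counted at 64.9 and 65.3 CPM by library total in the fed libraries labelled KO and at 60.9 and 61.3 in fed WT. In the starved libraries it was at 64.4 and 65.9 labelled KO and at 139.5 and 146.5 in WT. The level of Kdm3a was thus lower in the libraries labelled KO only among the starved ones. Xist, whose RNA coats the inactive X chromosome, had 31 to 58 counts in the WT libraries and 43713 to 72498 in those labelled KO, so the label and the sex of the cells cannot be told apart in these differences.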

How the results depend on the processing

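Of 285 tested genes named above, 278 kept their direction and their side of the threshold in every alternative that gave a value, and 284 did so in every alternative but library totals, Fap being the exception. With library totals Eif2ak1 turned to -0.01, Eif2ak4, Pfkfb3 and Sesn2 were no longer called, and Bcl2l1 and Dcn were called lower; the median gene moved by -0.46 log2. Library totals gave 3397 genes higher and 1076 higher by more than 2-fold, and 28.2% of calls were higher against 45% with TMM. A minimum of 5 CPM in 2 libraries gave 2576 genes lower by more than 2-fold, with 11190 genes tested. Every other count was within 1.5 times its value in the report, with DESeq2, no filter, WT libraries only and summed rows, and without any 1 library, where 5110 to 5521 genes rose and 5895 to 6514 fell. Leaving out fed replicate 1 or either starved replicate ended the call of Fap, which has 11 counts.

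Replicate numbers are shared between the groups, but deviations of same-numbered libraries correlated at -0.087 between fed and starved WT and at -0.018 to 0.049 for the other pairs of groups, so the numbers were not taken to pair the samples. With the replicate block 5254 genes rose and 6367 fell (2143 and 3883 by more than 2-fold), and no named gene changed its call. With 2 libraries a group and no record of separate cultures, spread between cultures was not measured. Genes of a few counts carry wide errors.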

Other observations

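Genes were also grouped by the letters that begin their symbols, a grouping chosen after values were seen and given as a description with no test. It covered 40 groups of at least 30 tested genes. Zinc finger genes of the Zfp group, most of them little-studied DNA-binding factors, had 331 members: 41.7% fell and 8.76% rose by more than 2-fold, against 27.4% and 15% of all genes, and their median was -0.69. Of 48 tripartite motif (Trim) genes 39.6% fell and 6.25% rose by more than 2-fold (median -0.70). Interleukin and interleukin receptor symbols (Il) had the lowest median, -1.77 over 43 genes, and 58.1% of them fell by more than 2-fold.

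At the other end, the highest medians were those of Rpl (1.04), Rps (0.95) and Eif (0.89) symbols. Below them, 36 DEAD-box helicase genes (Ddx), which remodel RNA, had a median of 0.66, or 0.20 with library totals, and 33.3% rose by more than 2-fold. RNA-binding motif genes (Rbm) spread more widely: 38.2% of 34 rose and 29.4% fell by more than 2-fold. Their median was 0.72, or 0.27 with library totals. Vacuolar sorting genes (Vps) had a median of 0.47 over 32 genes, which was 0.01 with library totals.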
